A study of Homo sapiens with 6 samples.

Results

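The proteasome genes of MM.1S myeloma cells were followed through 3, 6 and 12 h of enzastaurin. They were taken by name: every gene whose symbol starts with PSMA, PSMB, PSMC, PSMD, PSME, PSMF or PSMG and a digit, and POMP, read from a probe set that the platform annotation pairs with a single symbol. The rule itself uses names only. The rule took 42 of the 11963 genes with such a probe set, and 40 of the 42 encode proteasome subunits, activators, an inhibitor or assembly factors. PSMC3IP and PSME3IP1 matched by letters only and are described apart. PSMA6 and PSME2 were read only by probe sets listed with several genes and were given no value. PSMA8, PSMB11, PSMC5, PSMD7, PSMD13, PSMG3 and PSMG4 were not analysed here. The values come from MM.1S, an established human multiple myeloma line, either untreated or given enzastaurin, which inhibits the beta isoform of protein kinase C. Each treatment and time had 1 array, which gives 3 untreated and 3 enzastaurin arrays, and the labels used here name no dose and no vehicle.

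The proteasome degrades proteins marked with ubiquitin. Its core is a barrel of alpha rings, which gate the entry, and beta rings, which carry the proteolytic sites in PSMB5, PSMB6 and PSMB7. In lymphoid cells, and after interferon, PSMB8, PSMB9 and PSMB10 can take the places of PSMB5, PSMB6 and PSMB7 and form the immunoproteasome, which favours peptides suited to class I antigen presentation. A regulatory particle caps the core. Its base unfolds substrates with ATPases and its lid removes ubiquitin, while PSME proteins form other caps that work without ubiquitin. Plasma cells make large amounts of secreted protein, and myeloma is treated with drugs that block PSMB5.

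Promoter sequences are shown for the 3 inducible subunits, which had the lowest mean ratios over 6 and 12 h together, and for PSMD5 and PSMB3, which had the highest. PSMB10 was added to this set after its values had been seen. Each is the 250 bases before the transcription start in RefSeq, build GRCh38.p14, 5′ to 3′ on the gene's strand, and where a gene has several starts the outermost is used. Capitals mark TGANNNNGC (a loose pattern for the antioxidant response element), CCAAT (the NF-Y box), GGGCGG (an SP1 box) and the interferon-stimulated response element. Each was marked on either strand.
PSMB8 (chr6:32844680-32844929, minus strand): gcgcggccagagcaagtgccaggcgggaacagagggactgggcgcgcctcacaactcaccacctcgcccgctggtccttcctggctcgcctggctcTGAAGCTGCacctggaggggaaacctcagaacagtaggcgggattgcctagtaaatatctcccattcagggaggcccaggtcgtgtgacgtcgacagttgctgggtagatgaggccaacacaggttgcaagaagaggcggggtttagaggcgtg
PSMB9 (chr6:32853942-32854191, plus strand): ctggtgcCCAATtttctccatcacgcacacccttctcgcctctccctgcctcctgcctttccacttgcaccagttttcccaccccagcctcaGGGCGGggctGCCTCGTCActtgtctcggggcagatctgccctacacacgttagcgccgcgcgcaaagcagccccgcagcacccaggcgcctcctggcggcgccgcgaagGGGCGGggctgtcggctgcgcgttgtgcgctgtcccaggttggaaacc
PSMB10 (chr16:67936851-67937100, minus strand): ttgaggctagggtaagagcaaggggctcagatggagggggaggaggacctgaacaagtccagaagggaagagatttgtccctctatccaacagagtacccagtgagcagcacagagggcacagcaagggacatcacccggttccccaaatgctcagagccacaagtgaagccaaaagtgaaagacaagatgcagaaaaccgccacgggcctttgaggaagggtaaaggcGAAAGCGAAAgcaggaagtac
PSMD5 (chr9:120842923-120843172, minus strand): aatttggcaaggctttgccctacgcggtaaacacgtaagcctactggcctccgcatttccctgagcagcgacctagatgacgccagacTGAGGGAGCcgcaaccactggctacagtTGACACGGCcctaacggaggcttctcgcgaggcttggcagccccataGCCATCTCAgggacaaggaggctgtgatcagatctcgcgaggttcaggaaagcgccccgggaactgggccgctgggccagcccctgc
PSMB3 (chr17:38752491-38752740, plus strand): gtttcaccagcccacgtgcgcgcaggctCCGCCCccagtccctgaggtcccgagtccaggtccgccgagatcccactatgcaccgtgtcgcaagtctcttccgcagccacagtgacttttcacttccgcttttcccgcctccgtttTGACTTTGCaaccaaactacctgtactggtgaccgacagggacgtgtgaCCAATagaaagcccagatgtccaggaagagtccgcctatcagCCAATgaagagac

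Among the 35 members with a promoter window of 300 bases, 250 before and 50 after the start, TGANNNNGC was found in 21 (60 percent), against 42.2 percent of 27305 genes. PSMB1, PSMB6, PSMB7, PSMA7 and PSMD4 were not matched to a window. PSMD5 held 3 such matches, and PSMB3, PSMB8 and PSMB9 each held 1. CCAAT was found in 45.7 percent of members and 35.7 percent of genes, and GGGCGG in 60 and 44.5 percent. The interferon-stimulated response element, a motif chosen after the values had been seen, was in 4 members (11.4 percent, against 3.66 percent of genes), namely PSMB10, PSME1, PSMA4 and PSMB4. The cAMP response element TGACGTCA was in no member and in 1.97 percent of genes. No pair of these motifs shares bases in the 5 printed sequences. PSMB8 and PSMB9 lie close together on chromosome 6, with TAP1 and the antisense RNA PSMB8-AS1 between them in the order of RefSeq genes. A motif match describes these letters and does not show binding.

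All values are Affymetrix MAS5 intensities or log2 ratios of enzastaurin over untreated cells at the same time. Array medians ran from 62.2 to 67.6. All 8 myeloma and plasma cell markers passed the intensity filter, with summed intensities of 14766 to 20316 in untreated and 12162 to 15852 in enzastaurin cells. SDC1, TNFRSF17 and IRF4 of that list fell in the later pairs, with mean log2 ratios of -1.04, -2.05 and -1.60 (limma adjusted p = 0.0246, 0.00165 and 0.00127). The other 5 were not called, with -0.38 for CD38, -0.70 for PRDM1, -0.55 for SLAMF7, -0.37 for MZB1 and 0.36 for XBP1. In bulk RNA of a cell line, fewer cells holding these RNAs and less of them per cell cannot be told apart. None of 5 T and NK cell markers and none of 4 measured monocyte markers passed, and these read at most 54.8. The stromal markers COL1A1 and COL1A2 passed, at intensities from 73.2 to 145, while LUM and COL3A1 did not. The mean log2 intensity of 3 ribosomal RNA probe sets was 9.99 with enzastaurin and 3.39 without at 3 h, 3.79 and 11.98 at 6 h, and 3.02 and 9.29 at 12 h. The ACTB log2 ratio of 3' over 5' probe sets at 6 and 12 h was 0.57 and 0.86 with enzastaurin and 1.16 and 1.60 without. Both measures thus moved with treatment at 6 and 12 h, and their part in the results was not tested unless a value is given.

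On the brightest probe set of each gene, the inducible catalytic subunits stood out in size within the core. A dimmer PSMA2 probe set had a mean log2 ratio at 6 and 12 h of -1.30. PSMB8, PSMB9 and PSMB10 had -1.57, -1.24 and -0.99. PSMB8, PSMB9 and PSMB10 each read above the untreated array at 3 h and below it at 6 and 12 h. In the limma fit of both later pairs, PSMB8 and PSMB9 fell, 2.98-fold and 2.36-fold, and were the called members among 40. These are 5 percent of members, beside 3.61 percent called over all 6838 genes tested, 2.08 percent lower and 1.54 percent higher, so the share of calls was near that of all genes. At an unadjusted p under 0.05 there were 8 members, all lower, where 15.9 percent of all genes were in either direction.

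PSMB8, the inducible counterpart of PSMB5, read 192, 193 and 250 in untreated cells at 3, 6 and 12 h, and 238, 80.2 and 67.9 with enzastaurin. The untreated arrays and the 3 h enzastaurin array were thus at one level, and the later enzastaurin arrays lay below all of them. Its mean log2 ratio at 6 and 12 h was -1.57 (SE 0.36, n = 2 pairs, limma adjusted p = 0.0198). Those last intensities lie below all COL1A1 readings, 90.9 to 145, so the size of the ratio is not exact, and with 16 added to each intensity it was -1.39 (limma adjusted p = 0.0104).

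PSMB9, the inducible counterpart of PSMB6, read 476, 500 and 655 without enzastaurin and 709, 261 and 225 with it. Its 3 h enzastaurin array was the highest of the 6, and its later enzastaurin arrays were the lowest. The mean log2 ratio at 6 and 12 h was -1.24 (SE 0.33, n = 2 pairs, limma adjusted p = 0.0437). This call was lost with an intensity-free prior (adjusted p = 0.0849) and without the time block (adjusted p = 0.0601). PSMB10, the counterpart of PSMB7, read 589, 511 and 815 without enzastaurin and 927, 389 and 270 with it. Its order of arrays was like that of PSMB9, with a mean log2 ratio of -0.99 (SE 0.35, adjusted p = 0.136), which did not pass. It passed with equal medians of the kept genes (adjusted p = 0.0464) and without an intensity filter (adjusted p = 0.0498). Each of these 3 genes had 1 probe set, so no second reading was at hand.

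In untreated cells the ribosomal RNA log2 intensity was 3.39, 11.98 and 9.29 at 3, 6 and 12 h. On these arrays PSMB8 read 192, 193 and 250, PSMB9 476, 500 and 655 and PSMB10 589, 511 and 815. In enzastaurin cells the ribosomal RNA log2 intensity was 9.99, 3.79 and 3.02. There PSMB8 read 238, 80.2 and 67.9, PSMB9 709, 261 and 225 and PSMB10 927, 389 and 270. Apart from the next fit, the part of the ribosomal RNA intensity was not tested. With that intensity as a covariate over all 6 arrays, the log2 ratio was -0.61 for PSMB8, -0.31 for PSMB9 and -0.16 for PSMB10, against -0.95, -0.63 and -0.44 without it, and none was called in limma in either fit. These means rest on the times used: without the 12 h pair they were -0.48, -0.18 and 0.13, and without the 3 h pair, which leaves the fit of the later pairs, -1.57, -1.24 and -0.99.

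The constitutive catalytic subunits had smaller ratios. PSMB5, the site of chymotrypsin-like activity and the main target of proteasome inhibitors, read 615, 442 and 683 without enzastaurin and 639, 470 and 531 with it. These groups overlapped, and its mean log2 ratio over 3 times was -0.07 (SE 0.28, n = 3). PSMB6, with caspase-like activity, read 1579, 2194 and 2205 against 1862, 1572 and 1815. PSMB7, with trypsin-like activity, read 1431, 1393 and 1597 against 1470, 1127 and 988, and at 6 and 12 h its mean log2 ratio was -0.50 (SE 0.27, limma adjusted p = 0.382). None of the 3 was called.

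The log2 ratio of each inducible subunit minus that of its constitutive partner cancels the scaling of arrays. For PSMB8 minus PSMB5 it was 0.26, -1.35 and -1.52 at 3, 6 and 12 h. For PSMB9 minus PSMB6 it was 0.34, -0.46 and -1.26, and for PSMB10 minus PSMB7 it was 0.62, -0.09 and -0.90. The inducible member thus had the higher ratio of each pair at 3 h and the lower ratio at 6 and 12 h. These differences rest on 1 pair of arrays at each time and were not tested.

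**Figure D1:**
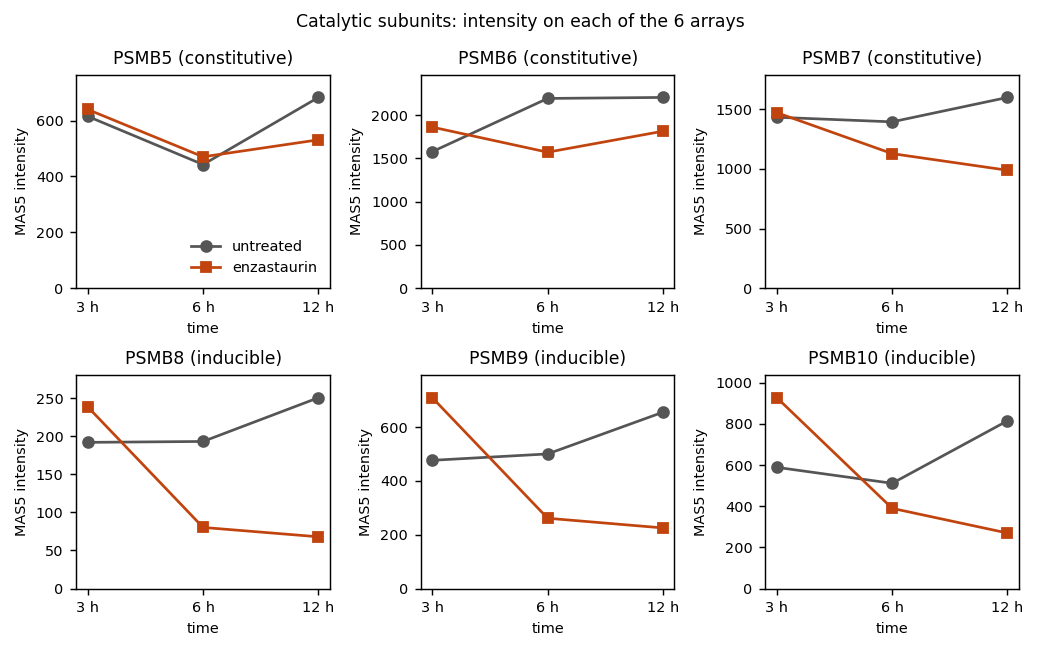
MAS5 intensity (vertical axis, from 0, scaled per gene) of the 6 catalytic subunits at 3, 6 and 12 h, with grey circles for untreated and orange squares for enzastaurin arrays, 1 array per point. PSMB8 with enzastaurin goes from 238 at 3 h to 67.9 at 12 h, while PSMB5 goes from 639 to 531.

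The other beta ring subunits, which have no proteolytic site, differed among themselves. PSMB3 read 1395, 1770 and 1480 without enzastaurin and 1287, 2124 and 1982 with it, so it was lower at 3 h and higher later (mean log2 ratio over 3 times 0.19, SE 0.22). On the brightest probe set of each gene, PSMB3 was the 1 core subunit with a mean ratio above 0 on the deposited scale. PSMB1 read 2781, 2700 and 2826 against 2939, 2155 and 1562, a mean log2 ratio of -0.37 (SE 0.22). A second PSMB1 probe set had log2 ratios of 0.07, -0.35 and -0.20, so the 12 h ratio was further from 0 on the brighter probe set, at -0.86. PSMB4 had log2 ratios of 0.13, -0.35 and -0.33, and its second probe set 0.31, -0.40 and -0.30. PSMB2 had -0.14, -0.02 and -0.03. Its second probe set, near the intensity filter at a geometric mean of 64.4, had 0.28, 1.53 and 0.24.

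All 6 measured alpha ring genes had a mean log2 ratio below 0. PSMA3 had the lowest, at 2011, 1777 and 1964 without enzastaurin and 1656, 1331 and 1054 with it (mean log2 ratio -0.53, SE 0.23, n = 3, limma adjusted p = 0.882). Every enzastaurin array lay below every untreated array. PSMA7 was nearest to 0, at -0.17 (SE 0.19), from 2471, 2512 and 2500 to 2248, 2191 and 2226, again with no overlap. Some probe sets of PSMA1, PSMA7, PSMB2, PSMD4 and PSME3 carry the suffix x_at, which marks probes that can bind other transcripts too. PSMA1, at 3115 to 3195 without and 2682 to 2894 with enzastaurin, and PSMA4, at 2303 to 2547 and 1983 to 2017, did not overlap either. PSMA5 had log2 ratios of -0.10, 0.32 and -0.93. PSMA2 had -0.25, -0.18 and -0.53 on its bright probe set, at a geometric mean of 3066, and 0.11, -0.87 and -1.72 on a dimmer set at 269.

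In 7 of 40 members (17.5 percent) the 3 enzastaurin arrays lay wholly below the 3 untreated arrays, where 7.18 percent of all genes tested did. They are PSMA1, PSMA3, PSMA4, PSMA7, PSMC6, PSMD1 and PSMD14, each on its brightest probe set. Another kept probe set did not lie wholly below in PSMA1, PSMA7 and PSMD1. Its log2 ratio was 0.01 at 12 h for PSMA1, 0.22 at 3 h for PSMA7 and 0.08 at 6 h for PSMD1. In PSMD1 the gap was only from 1293 to 1292. No member lay wholly above, against 3.47 percent of all genes. Over the 3 times limma called 0 of 40 members (smallest adjusted p = 0.878) and 0.0585 percent of all genes, 0.0292 percent higher and 0.0292 percent lower. At an unadjusted p under 0.05 there were 2 members, PSMA3 and PSMB8, both lower, or 5 percent where 5.41 percent of all genes were.

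Base ATPases, which unfold substrates and open the gate, ran from PSMC6 to PSMC3. PSMC6 read 554, 580 and 615 without enzastaurin and 409, 544 and 256 with it (mean log2 ratio -0.60, SE 0.32, limma adjusted p = 0.980). Its 12 h enzastaurin array was the lowest, at a log2 ratio of -1.26. PSMC3 read 748, 782 and 837 against 774, 832 and 829, a mean log2 ratio of 0.04 (SE 0.26). PSMC1 had log2 ratios of -0.06, -0.08 and -0.38. PSMC2 had -0.14, 0.02 and -0.95, and its second probe set -0.06, 0.16 and -0.79, so both readings were low at 12 h alone. PSMC4 read 626, 1255 and 764 in untreated cells, a spread larger than its difference from 673, 854 and 626 with enzastaurin.

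Among the base subunits without ATPase activity, PSMD2, a scaffold that docks ubiquitin-binding partners, read 1727, 1858 and 2142 without enzastaurin and 1819, 1266 and 1181 with it. It was close to untreated cells at 3 h and below all untreated arrays later, with a mean log2 ratio at 6 and 12 h of -0.71 (SE 0.25, n = 2 pairs, limma adjusted p = 0.150). PSMD1, the other large scaffold, read 1293, 1298 and 1417 without and 1292, 1292 and 1072 with the drug, so it differed at 12 h alone (log2 ratio -0.40). PSMD4, a ubiquitin receptor, had 0.01, -0.31 and -0.17.

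In the lid, PSMD3 read 302, 491 and 490 without enzastaurin and 391, 249 and 299 with it. The 3 h untreated array was as low as the later enzastaurin arrays, and the mean log2 ratio at 6 and 12 h was -0.85 (SE 0.32, limma adjusted p = 0.186). PSMD8 had the highest mean ratio of the lid, -0.01, from log2 ratios of 0.59, -0.56 and -0.06. Its untreated intensities of 702, 1327 and 1108 spanned its enzastaurin intensities, which lay between 901 and 1059. PSMD14, the enzyme that removes ubiquitin chains, read 1790, 2001 and 1907 without enzastaurin and 1625, 1597 and 1453 with it (mean log2 ratio -0.29, SE 0.21). PSMD6, PSMD11 and PSMD12 had 12 h log2 ratios of -0.70, -0.36 and -0.64, with 6 h ratios from 0.01 to 0.13. A second PSMD12 probe set had -1.08, 1.21 and -0.74.

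**Figure D2:**
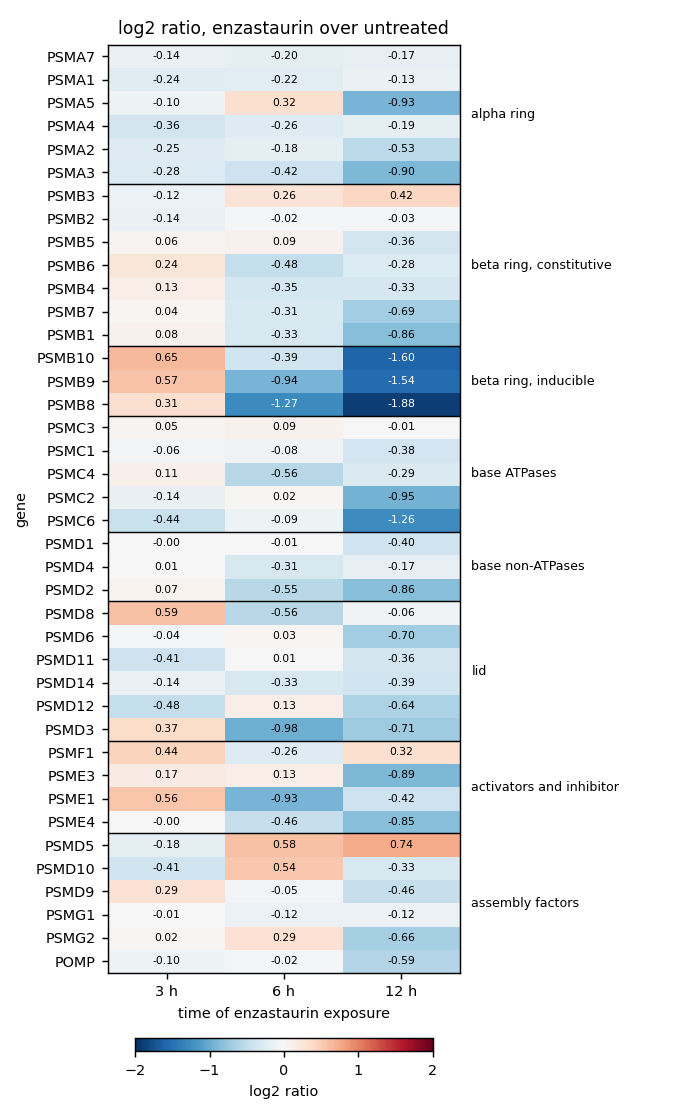
Log2 ratio of enzastaurin over untreated intensity for the 40 members (rows, grouped by class) at 3, 6 and 12 h (columns), with blue for lower and red for higher and the value in each cell. The inducible beta subunits PSMB8, PSMB9 and PSMB10 reach -1.88, -1.54 and -1.60 at 12 h, and PSMD5 reaches 0.74.

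Of the activators, PSME1 is an interferon-inducible cap subunit. It read 969, 1567 and 1343 without enzastaurin and 1431, 822 and 1006 with it. It had a positive log2 ratio at 3 h, 0.56, and negative ratios of -0.93 and -0.42 later. That order of signs was seen in 14 of 40 members (35 percent) and in 19.6 percent of all genes, and the 14 include the inducible PSMB8, PSMB9 and PSMB10 and the constitutive PSMB1, PSMB4, PSMB6 and PSMB7. Its mean log2 ratio at 6 and 12 h was -0.67 (SE 0.27, limma adjusted p = 0.219). PSME3, which forms a nuclear cap, read 680, 703 and 824 against 762, 769 and 443, so only its 12 h array was low. Its 4 probe sets disagreed, with mean log2 ratios of -0.20, 0.07, 0.10 and -0.40.

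PSME4, a single-chain cap, read 515, 420 and 580 without enzastaurin and 514, 305 and 322 with it (mean log2 ratio at 6 and 12 h -0.65, SE 0.32, limma adjusted p = 0.335). A dimmer PSME4 probe set had log2 ratios of -0.47, 1.40 and 1.32 and another had 0.33, 0.11 and -0.18, so the gene has no settled direction. PSMF1, an inhibitor of the core, read 357, 554 and 500 without and 484, 463 and 625 with enzastaurin, with a mean log2 ratio of 0.17 (SE 0.29). Its second probe set had a 12 h log2 ratio of -1.05 where the first had 0.32. PSMB2, PSME3, PSME4 and PSMF1 were the genes whose kept probe sets differed in the sign of the mean ratio, of 15 genes taken by the name rule with over 1 kept probe set.

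Assembly factors held the highest ratio of all members. PSMD5, a chaperone that binds a base ATPase during assembly, read 346, 280 and 262 without enzastaurin and 304, 420 and 439 with it. It was lower at 3 h and above all untreated arrays later, and its mean log2 ratio at 6 and 12 h was 0.66 (SE 0.32, limma adjusted p = 0.331), which did not pass. POMP, which guides maturation of the beta rings, read 2034, 1630 and 2021 against 1903, 1608 and 1344 (mean log2 ratio over 3 times -0.23, SE 0.22). PSMD10, also called gankyrin, had log2 ratios of -0.41, 0.54 and -0.33. PSMD9, a further base chaperone, had 0.29, -0.05 and -0.46. The alpha ring chaperones PSMG1 and PSMG2 had mean log2 ratios of -0.08 and -0.12.

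**Figure D3:**
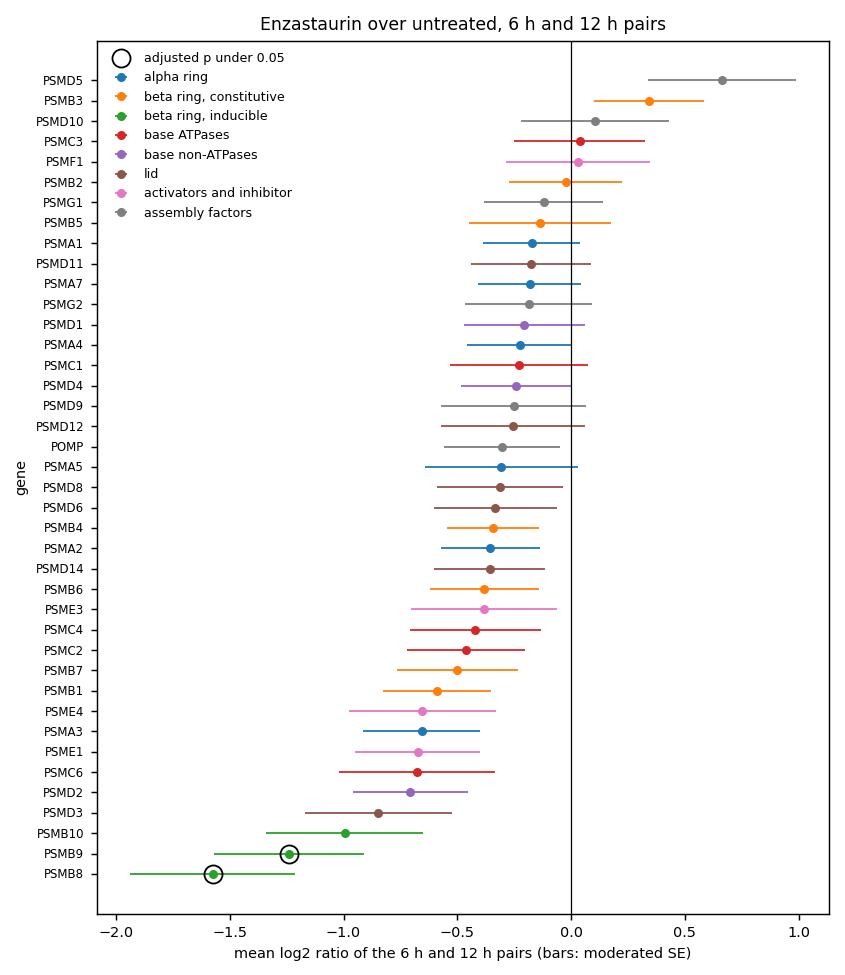
Mean log2 ratio of the 6 h and 12 h pairs for each of the 40 members (points, coloured by class, sorted by size), with bars for the moderated standard error from limma. Black rings mark PSMB8 at -1.57 and PSMB9 at -1.24, which passed an adjusted p of 0.05, and PSMD5 is highest at 0.66.

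The classes were then set side by side. The median log2 ratio of 16 core genes was -0.03, -0.28 and -0.45 at 3, 6 and 12 h. It was -0.02, -0.09 and -0.40 for 14 genes of the lid and base, and 0.30, -0.36 and -0.63 for the 4 activators and inhibitor. For 6 assembly factors it was -0.05, 0.14 and -0.39, and over all 6838 genes tested it was -0.04, 0.06 and -0.18. Without the 3 inducible subunits the core medians were -0.12, -0.22 and -0.33, and the inducible subunits alone had 0.57, -0.94 and -1.60. The order of classes was not tested, and the activator medians rest on 4 genes of which 3 have probe sets of opposite sign.

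**Figure D4:**
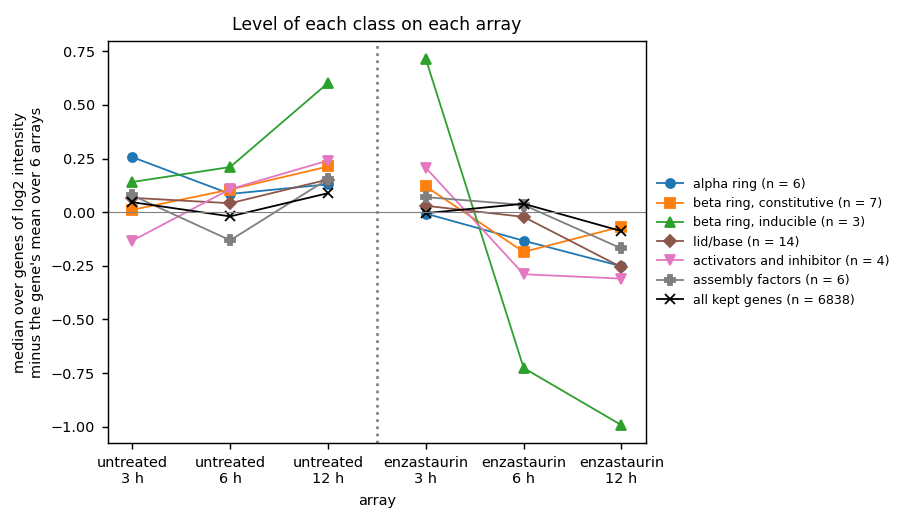
Median over the genes of a class of log2 intensity minus each gene's mean over the 6 arrays (vertical axis), by array, with black crosses for all kept genes. The inducible beta subunits lie at 0.71 on the 3 h enzastaurin array and at -0.73 and -0.99 on the 6 h and 12 h enzastaurin arrays. On the untreated arrays they lie at 0.14, 0.21 and 0.60 at 3, 6 and 12 h. The lid and base lie between -0.26 and 0.15 on all 6.

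Proteasome genes more often had ratios below 0 than all genes did at the later times. Of 40 members, 21 had a ratio below 0 at 3 h, 28 at 6 h and 37 at 12 h, where 53.6, 45.6 and 61.1 percent of all genes tested did. The 12 h count was 29 with quantile normalization and 29 with equal medians of the kept genes, where 51.9 and 48.9 percent of all genes were below 0. Both 6 h and 12 h ratios were below 0 in 27 members (67.5 percent, against 33.8 percent of all genes) and above 0 in 2, PSMB3 and PSMD5. At all 3 times the ratio was below 0 in 13 members (32.5 percent, against 14.2 percent of all genes) and above 0 in none, against 9.14 percent. Nearly all members are bright, and 39 of 40 lie in the upper 25 percent of intensity. The 3669 genes of that range had medians of -0.04, 0.06 and -0.23, and 37.3 percent of them were below 0 at both later times. At 3, 6 and 12 h, 54.5, 45.1 and 66.0 percent of them were below 0.

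The difference between the members' median and that of all genes was 0.04, -0.24 and -0.23 on the log2 scale at 3, 6 and 12 h, and it was 0.01, -0.18 and -0.17 with quantile normalization. At 12 h the median of all genes itself moved from -0.18 to -0.03 with that setting. The lowest of the 6 arrays was the 12 h enzastaurin array in 22 members (55 percent). The same held for 30.3 percent of all genes and 35.4 percent of the 3669 genes in the upper 25 percent of intensity. The highest of the 6 was the untreated 12 h array in 17 members (42.5 percent, against 18.5 percent of all genes). The 12 h ratios thus draw on both arrays of that pair. Most differences were small, since 36 of 40 members stayed within 2-fold of untreated cells at all 3 times (90 percent, against 77.8 percent of all genes). At 12 h 4 members were at least 2-fold lower, PSMB8, PSMB9, PSMB10 and PSMC6, or 10 percent where 10.4 percent of all genes were, and none was 2-fold higher, where 3.88 percent of all genes were. At 6 h PSMB8 alone was 2-fold lower, with 3.22 percent of all genes, and no member 2-fold higher, with 5.6 percent. At 3 h no member was 2-fold apart, with 1.89 percent of all genes higher and 2.65 percent lower. These counts use the brightest probe set of each gene, and some dimmer kept probe sets went past 2-fold. PSME4 had 1.40 and 1.32 at 6 and 12 h, PSMB2 1.53 at 6 h, and PSMD12 -1.08 and 1.21 at 3 and 6 h. At 12 h PSMA2, PSME3 and PSMF1 had -1.72, -1.24 and -1.05.

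The change of the ratio with exposure was fitted against log2 hours. Limma called 0 of 40 members, and 1.43 percent of all genes, 0.512 percent upward and 0.921 percent downward. At an unadjusted p under 0.05, which 11 percent of all genes reached, there were 3 members, all downward, namely PSMB10 (-1.13, adjusted p = 0.0841), PSMB8 (-1.10, adjusted p = 0.126) and PSMB9 (-1.06, adjusted p = 0.132). The errors of slopes come from the prior alone, which was estimated as infinite. With equal medians of all probe sets PSMB10 passed (-1.17, limma adjusted p = 0.0343).

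Of 32 linked genes of the ubiquitin and proteasome pathway, 24 had a value and all 24 passed the intensity filter. Their median log2 ratios of -0.02, 0.05 and -0.33 lay between those of the proteasome genes and of all genes at 6 h and 12 h. In the later pairs, 1 of 24 was called, lower, and none higher (4.17 percent, where 3.61 percent of all genes were called, 2.08 percent lower and 1.54 percent higher). It was VCP, the ATPase that extracts ubiquitinated proteins from membranes and complexes, at 1362, 1854 and 1682 without enzastaurin and 1471, 904 and 612 with it (mean log2 ratio -1.25, SE 0.27, n = 2 pairs, limma adjusted p = 0.0138). It was not called with the median over probe sets or with an intensity-free prior. The fit over 3 times and the slope fit called 0 of 24 in limma, where 0.0585 and 1.43 percent of all genes were called. At an unadjusted p under 0.05 there were 4 and 5 of 24, where 5.41 and 11 percent of all genes were. In the later pairs there were 8 of 24, 6 lower and 2 higher, where 15.9 percent of all genes were in either direction.

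Among the other linked genes, ADRM1, a ubiquitin receptor of the base, had log2 ratios of 0.61, -0.51 and -1.19, and the ubiquitin gene UBB had -0.01, -0.44 and -0.81 (adjusted p = 0.0736 in the fit of the later pairs). The deubiquitinase USP14 and the small subunit SEM1 had mean log2 ratios of -0.10 and -0.19. NFE2L1, the factor that restores proteasome gene expression when the proteasome is blocked, had -0.02, 0.64 and 0.27, and NFE2L2 had 0.47, 0.50 and 0.23. The related NFE2L3 had 0.29, -0.73 and -1.28 (limma adjusted p = 0.119 in the later pairs). MAFG, a partner of these factors, had 0.63, 0.89 and 0.49, and NGLY1, the glycanase that NFE2L1 needs for its activation, had 0.09, -0.45 and -0.76. ZFAND5, a protein that stimulates the proteasome, had 0.04, 1.13 and 0.53 (adjusted p = 0.0849). None of these passed the test over 3 times or in the later pairs, while UBB and ZFAND5 passed in the later pairs under some other settings.

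PSMC3IP, a recombination cofactor, and PSME3IP1, a partner of PSME3, carry a proteasome prefix without being subunits. PSMC3IP read 356, 230 and 275 without enzastaurin and 330, 209 and 185 with it, and PSME3IP1 read 146, 134 and 174 against 142, 154 and 111. Neither was called in any of the 3 fits.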

How the data were processed

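RNA of MM.1S cells was measured on Affymetrix arrays, 1 for each treatment and time. The authors deposited linear intensity values per probe set, and the submitters' processing notes name MAS5. Neither its version nor its target intensity is given in the sources used here. The number of arrays limits the precision. The table held 22277 probe sets, 19064 with 1 symbol. Intensities were floored at 1 and log2 transformed, the authors' scaling was kept, probe sets were retained if their mean log2 intensity lay in the upper 50 percent (geometric mean of 63.3 or more), and the highest probe set stood for each of 6838 genes. All 40 classified members passed this filter.

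Fits used limma 3.58.1 in R 4.3.3 (lmFit, eBayes with an intensity trend), blocked by time. The fit over 3 times has 2 residual degrees of freedom and a prior of 9.26, that of the 6 h and 12 h pairs 1 and 16.9, and the slope on log2 hours 1 and an infinite prior. An adjusted p (Benjamini-Hochberg over all genes) under 0.05 was called. Nothing says that arrays came from separate cultures, so the p-values rest on differences among single arrays that may be technical. The fits were tested on simulated data, where all 3 fits missed most 2-fold changes and made more false calls than the nominal rate at that size. Alternatives were no block, 3 other scalings, an offset of 16, other filters, the median over probe sets, a prior without the intensity trend, a ribosomal RNA covariate (fit over 3 times) and each time pair left out.

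Members, classes and lists were chosen with earlier results of these data known. Values are given for members with the highest and lowest mean ratio of each class, all called members, the catalytic subunits, the activators and POMP, and other members are given more briefly. Protein sequences were not used here.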

Additional observations from a re-analysis of the deposited data

How the results depend on the processing

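The fit over 3 times called 0 members under every other setting run except without the 3 h pair, where it called 2, and that setting is the fit of the later pairs itself and no separate check (range 0 to 2 over single pairs left out). In the fit of the later pairs the 2 calls became 1, PSMB8, without the time block and with an intensity-free prior. With the upper 25 percent of intensity kept they became PSMB9 alone, since PSMB8 lies below that limit. They remained 2 or became 3 in the other 6 settings. The slope fit called 1 member with equal medians of all probe sets and 0 otherwise. For linked genes the later fit called 3 with quantile normalization, with equal medians of the kept genes and without a filter, 2 with equal medians of all probe sets and 0 with an intensity-free prior. The slope fit called 1 with equal medians of all probe sets, and the 3-time fit 0 to 1 with single pairs left out. Quantile normalization moved the 12 h median log2 ratio of all members to -0.20, of the core to -0.24 and of the lid and base to -0.18, and equal medians of the kept genes moved them to -0.22, -0.25 and -0.20. The median over probe sets moved the 6 h median of activators to 0.26 and turned PSME4 in the later fit to 1.15 (limma adjusted p = 0.0273), as its dimmer probe sets then enter. The cause of the other moves was not tested. Leaving out a time leaves the slope fit no residual degree of freedom, so that was not run, and the later pairs were not split either.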
